A study of Arabidopsis thaliana with 8 samples.

Results

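The strongest CGA1 peaks were the 363 nuclear regions of the first CGA1 peak list that had a MACS score of at least 80 and overlapped, by at least 1 bp, a peak with a score of at least 80 in the second CGA1 list. They were 14.8% of the 2456 nuclear peaks of the first list, and the second list held 2399. The series comprised chromatin immunoprecipitation sequencing (ChIP-seq) of leaves from 3-week-old Arabidopsis thaliana plants of ecotype Col-0 under long days, from overexpression lines that carried either myc-tagged CGA1 or myc-tagged GNC. Each line had 2 replicates, each replicate had an IP library made with anti-myc antibody and an INPUT library of sonicated chromatin without antibody, and the 8 libraries gave 4 peak lists. Because the tagged factor was overexpressed, the lists describe where it was recovered under overexpression, and peaks of an untagged or IgG control were not analysed here. The MACS score is the negative log10, multiplied by 10, of the p-value MACS gave a peak when it set IP against INPUT, the lowest score in the lists was 50, and no read counts came with it.

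CGA1 and GNC are paralogous GATA transcription factors, zinc-finger proteins that contact DNA at short sites built around the letters GATA or GATC. In Arabidopsis leaves they are known for promoting chlorophyll accumulation and chloroplast development and for acting downstream of cytokinin, gibberellin and auxin signals. Both also delay flowering, in part through SOC1, a MADS-box gene that integrates flowering signals.

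Sequences are shown for the 3 peaks with the highest mean scores, both peaks near SOC1, the peak in PKT3, which held the most GATA and GATC words among the top 6, and the peak at CCoAOMT1, where the GNC score was also high. Each is the central 200 bp of the peak on the + strand of the TAIR10.1 genome of RefSeq, and the capitals mark GATA, its reverse complement TATC, and GATC.
AT5G00625 neighbourhood, chr5:20548246-20548445: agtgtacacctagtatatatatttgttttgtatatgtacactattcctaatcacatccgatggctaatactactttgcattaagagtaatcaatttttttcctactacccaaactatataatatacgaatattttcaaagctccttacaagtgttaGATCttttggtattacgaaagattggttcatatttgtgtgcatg
AT2G00340 and AT2G01023, chr2:9947-10146: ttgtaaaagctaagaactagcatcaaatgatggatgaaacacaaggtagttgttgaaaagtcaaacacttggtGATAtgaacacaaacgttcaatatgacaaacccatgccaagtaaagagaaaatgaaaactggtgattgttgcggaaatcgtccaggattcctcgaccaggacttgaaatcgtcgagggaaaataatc
AT3G08880, chr3:2704269-2704468: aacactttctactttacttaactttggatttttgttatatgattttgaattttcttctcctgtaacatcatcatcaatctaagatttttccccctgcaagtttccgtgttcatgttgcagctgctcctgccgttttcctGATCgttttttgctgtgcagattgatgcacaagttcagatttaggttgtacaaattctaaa
SOC1, peak at the TSS, chr2:18810962-18811161: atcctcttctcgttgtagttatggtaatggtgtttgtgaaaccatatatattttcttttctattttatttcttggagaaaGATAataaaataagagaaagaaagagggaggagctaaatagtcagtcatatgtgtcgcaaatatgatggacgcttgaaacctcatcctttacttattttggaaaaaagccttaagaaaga
SOC1, upstream peak, chr2:18813120-18813319: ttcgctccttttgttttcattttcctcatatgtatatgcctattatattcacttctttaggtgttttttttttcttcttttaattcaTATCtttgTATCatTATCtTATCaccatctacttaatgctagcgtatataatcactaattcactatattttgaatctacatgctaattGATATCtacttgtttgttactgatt
PKT3, chr2:14051005-14051204: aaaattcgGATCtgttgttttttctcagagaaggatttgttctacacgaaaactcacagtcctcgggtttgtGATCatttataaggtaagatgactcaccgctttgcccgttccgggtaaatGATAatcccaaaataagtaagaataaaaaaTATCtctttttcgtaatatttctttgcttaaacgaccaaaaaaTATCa
CCoAOMT1, chr4:16311970-16312169: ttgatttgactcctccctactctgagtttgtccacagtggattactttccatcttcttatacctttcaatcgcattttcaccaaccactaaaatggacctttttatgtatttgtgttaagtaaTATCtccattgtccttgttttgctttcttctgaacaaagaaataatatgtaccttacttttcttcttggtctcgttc
The central 200 bp of the upstream SOC1 peak held 6 GATA words, those of the SOC1 peak at the TSS held 1, and those of the AT5G00625 and AT3G08880 peaks held 0 GATA words and 1 GATC word each.

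The members were chosen by their scores, so the scores are a description and were not tested. In replicate 1 they ran from 80.15 to 457.19 with a median of 100.6, and in replicate 2 from 80.05 to 610.72 with a median of 100.1. Only 6 peaks reached 200 in both lists, and 146 reached 100 in both, so that most members lay close to the minimum. The replicate 2 score was higher for 196 peaks, and the scores were equal for 41. The ratio of replicate 2 to replicate 1 ran from 0.679 to 2.14, and it was over 1.5 for 5 peaks and under the inverse of 1.5 for 0.

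Both edges were identical between the lists for 168 peaks (46.3%), and for 338 (93.1%) each edge differed by 0 or 4 bp. The largest edge difference was 266 bp. The lists thus largely shared their intervals, they were counted as 1 sample, and no SD between replicates was given. Of the 478 replicate 1 peaks with a score of at least 80, 100 overlapped only replicate 2 peaks below 80 and 15 overlapped none. Just inside the minimum were the peaks at PK1 with scores of 85.01 and 80.05, at AT5G41130 with 80.15 in each list, and at AT3G08425 with 80.16 and 92.81. Just outside were the peaks at DEG1 and at AT3G24465, both with 79.99 and 81.2, and at ICR1 with 79.99 and 80.67, so the boundary separated peaks that differed by less than 1 score unit.

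**Figure D1:**
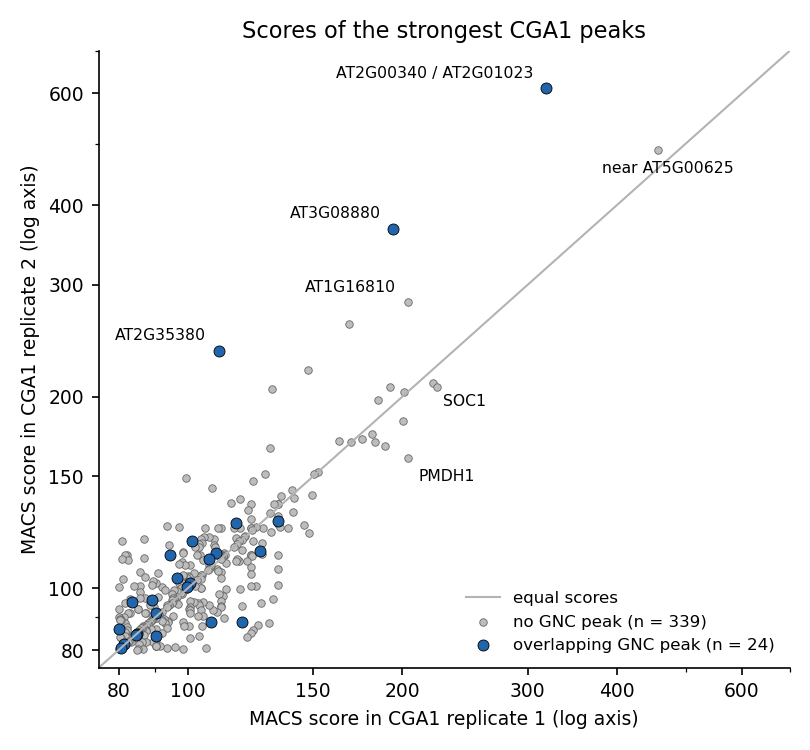
MACS score of each of the 363 strongest CGA1 peaks (points) in replicate 1 (x axis) and replicate 2 (y axis), both on log axes, with the line of equal scores. Blue points are the 24 peaks that overlapped a GNC peak, and AT2G00340, AT3G08880 and AT2G35380 among them lie far above the line.

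The highest mean score belonged to an intergenic peak on chromosome 5, chr5:20547822-20548869, the longest of all members at 1048 bp, with scores of 457.19 and 488.96. Its nearest TSS, 1383 bp away, was that of AT5G00625, an uncharacterized RNA. The protein-coding genes on each side were AT5G50450, an HCP-like protein with a MYND zinc finger, 3488 bp away, and AT5G50460, a secE/sec61-gamma protein translocation subunit, 2787 bp away. No GNC peak overlapped it, and the nearest GNC peak was 267 bp from its edge.

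The second, chr2:9824-10268, scored 318.32 in replicate 1 and 610.72 in replicate 2. Its centre lay 197 bp into AT2G00340, an uncharacterized RNA, and 279 bp upstream of the TSS of AT2G01023, an uncharacterized protein. An annotated ribosomal RNA gene lay 4101 bp away, near the start of the assembled chromosome. GNC had peaks of 556.44 and 646.47 there, the highest GNC scores among the members. Reads that matched several places had been removed by the authors, and the part of repeated sequence in this result was not tested.

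The third, chr3:2704033-2704703, lay within AT3G08880, which encodes a plectin-like protein, 1395 bp downstream of its TSS, with scores of 194.46 and 367.8 and a GNC peak of 78.92 in GNC replicate 1 alone. The fourth, chr1:5755812-5756750, lay within AT1G16810 and upstream of its neighbour AT1G16800, a P-loop nucleoside triphosphate hydrolase, with scores of 203.98 and 281.82. At both places the score was higher in replicate 2.

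SOC1, named AGL20 in the annotation, was the nearest protein-coding gene to 2 members. The fifth of the order, chr2:18810877-18811246, was centred 24 bp downstream of its TSS and scored 220.74 and 210.49. The other, chr2:18812979-18813459, was centred 2094 bp upstream and scored 86.39 in each list. The TSS nearest to this second peak was that of another gene, AT2G09655. The centres lay 2158 bp apart, and 4 CGA1 peaks of replicate 1 fell within 2 kb of the gene in all. Neither SOC1 member overlapped a GNC peak, and the nearest GNC peaks were 2987 bp and 774 bp away. The paper names SOC1 as a common target of both factors.

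The sixth, chr2:14050697-14051512, covered the 5' UTR of PKT3, the peroxisomal 3-ketoacyl-CoA thiolase of fatty acid beta-oxidation, and scored 223.9 and 207.13. The seventh scored 168.41 and 260.67 and was centred 22 bp upstream of the lncRNA AT3G03555. It lay between the protein kinase gene AT3G17850, whose TSS was 1475 bp away, and JAZ3, a repressor of jasmonate signalling, 1703 bp away. The eighth lay in an intron of AT1G77660 and scored 201.1 and 203.22. The ninth was intergenic, 3509 bp upstream of BLH4, a BEL1-like homeodomain factor, and scored 192.35 and 207.26. The tenth, at AT5G52550, was centred 14 bp downstream of the TSS and scored 200.27 and 183.16, with the UDP-sugar pyrophosphorylase gene USP 486 bp away.

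The other 5 of the top 15 were spread over several kinds of sequence. The peak in an intron of AT4G02660 was only 192 bp long and scored 185.02 and 197.72. The peak 1490 bp upstream of CML41, a calmodulin-like protein, scored 147.61 and 220.24. The peak in the 3' UTR of PMDH1, a peroxisomal NAD-malate dehydrogenase, scored 203.86 and 160.04. The peak 757 bp upstream of INT3, an inositol transporter gene, scored 189.13 and 167.42 and lay within the RNA gene AT2G00880. The peak in a coding exon of THO5, a THO complex subunit, scored 181.58 and 174.78. GNC peaks overlapped 2 of the 15, AT2G00340 and AT3G08880, where 6.84% of all CGA1 peaks had one, and 15 peaks are too few to read a difference from.

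**Figure D2:**
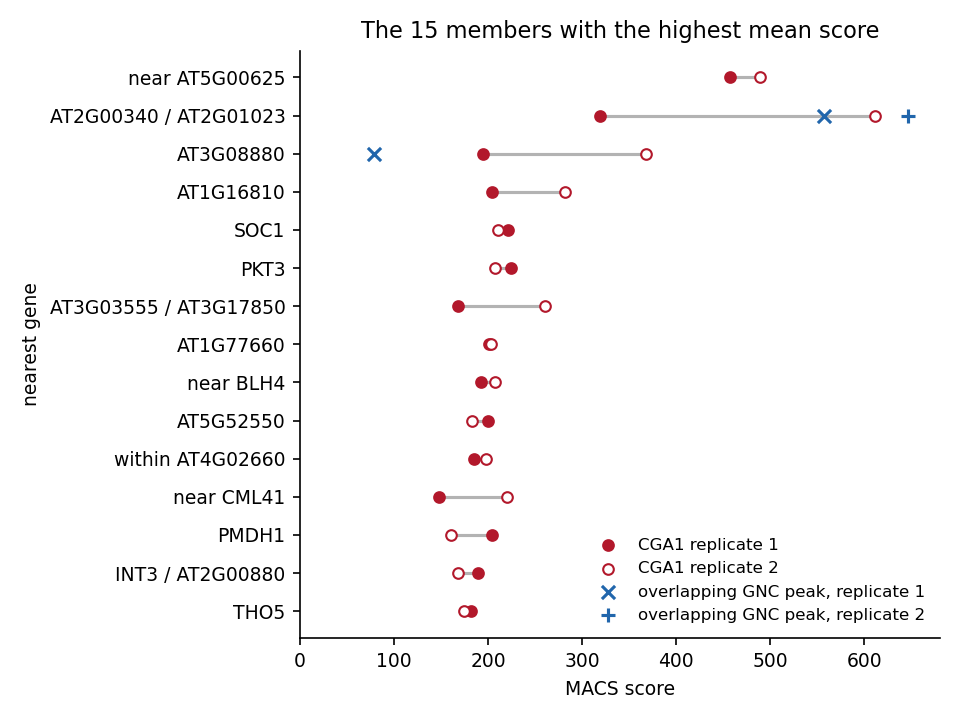
MACS scores (x axis) of the 15 peaks with the highest mean score, by nearest gene (y axis). Filled and open red circles are CGA1 replicates 1 and 2, blue crosses are the scores of overlapping GNC peaks, and GNC marks stand on 2 of the rows, AT2G00340 with 556.44 and 646.47 and AT3G08880 with 78.92.

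The members held more short and more long intervals than the list as a whole. Their median length was 430 bp, with quartiles of 258.5 and 563 bp and a range of 164 to 1048 bp, against a median of 411 bp and quartiles of 347 and 468 bp over all CGA1 peaks. Intervals under 250 bp were 84 of the members (23.1%) and 5.29% of all peaks. Intervals over 550 bp were 99 of the members (27.3%) and 12.4% of all peaks. Length and score came from the same reads, so this describes the selection and was not tested.

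Seen the other way, 64.6% of all peaks under 250 bp were members (95% Wilson interval 56.1 to 72.3), as were 32.6% of those over 550 bp (27.5 to 38.0). Only 6.72% of the peaks of at least 350 and under 450 bp were members. GNC peaks chosen by the same rule, 1166 of them, also held many short and long intervals, with 20.1% under 250 bp and 22.1% over 550 bp. The shortest members lay at AT3G02320 with 164 bp and scores of 135.17 and 139.7, at AT4G38980 with 166 bp and 163.13 and 170.4, and at AT5G54330 with 167 bp and 133.89 and 135.66. The longest after the chromosome 5 peak lay at AT1G76070, with 995 bp and scores of 100.04 and 104.69, and at AT1G16810 with 939 bp. Score and length thus did not follow each other in order, since the shortest members outscored AT1G76070.

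**Figure D3:**
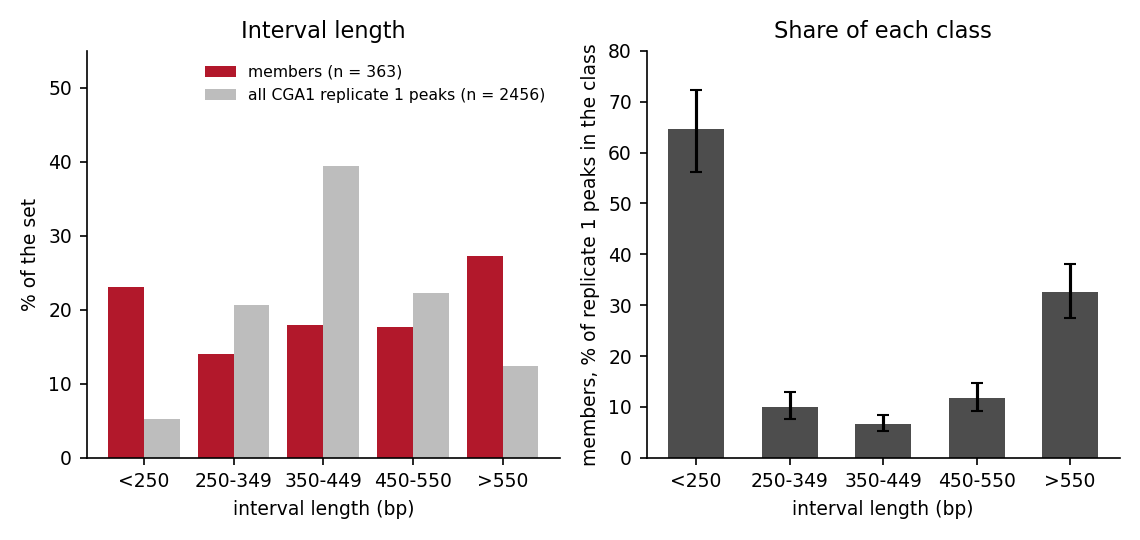
Left, share of the 363 strongest peaks (red) and of all 2456 CGA1 replicate 1 peaks (grey) in each class of interval length in bp. Right, share of each class that met the score rule, in percent with 95% Wilson intervals, highest for intervals under 250 bp (64.6%) and over 550 bp (32.6%).

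Most members lay in or beside genes. The peak centre fell in a promoter window, which reached 1 kb before and 100 bp past a TSS, for 138 members, 38.0% (95% Wilson interval 33.2 to 43.1). The background was 36.7% over all CGA1 peaks, 34.8% over the strong GNC peaks, and 32.0% of the genome length. The members' share thus lay near that of all CGA1 peaks, and the difference is within its interval. The first 500 bp held 94 members (25.9%, beside 23.57% of all CGA1 peaks), and the part from 500 bp to 1 kb held 44 (12.1%, beside 13.15%). The window around the transcript end (TTS) held 68 (18.7%, beside 19.46%). A centre counted for the window of any gene, which need not be the gene of the nearest TSS.

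Within genes, coding exons held 59 centres (16.3%, beside 16.49% of all CGA1 peaks) and introns other than the first 26 (7.16%, beside 9.446%). First introns held 14 (3.857%, beside 3.583%), 5' UTRs 8 (2.204%, beside 1.873%), 3' UTRs 4 (1.102%, beside 1.873%) and non-coding exons 7. Non-coding exons were 1.93% of the members, 1.47% of all CGA1 peaks and 6.57% of the genome, so their low share was found in the whole list. Intergenic sequence held 39 members (10.7%, beside 9.08% of all CGA1 peaks), close to its 11.0% of the genome. By chromosome the members numbered 90, 64, 70, 53 and 86 on chromosomes 1 to 5, or 2.85 to 3.25 per Mb.

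**Figure D4:**
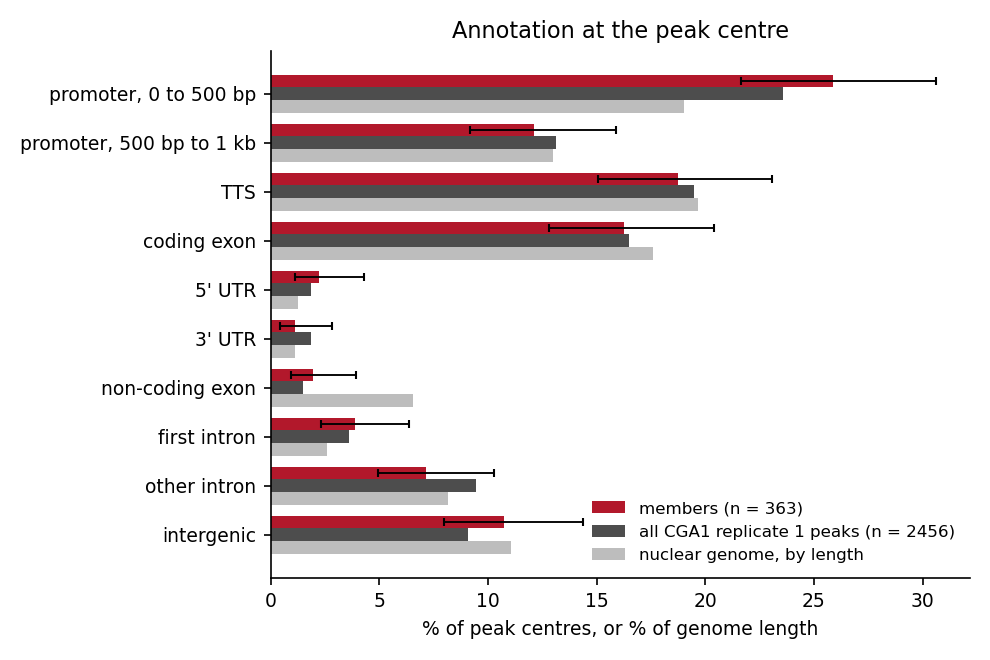
Annotation class at the peak centre (y axis) as percent of the 363 strongest peaks (red, with 95% Wilson intervals), percent of all 2456 CGA1 replicate 1 peaks (dark grey) and percent of the nuclear genome length (light grey). The classes of the members follow those of all peaks, with 38.0% against 36.7% over both promoter classes.

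The median distance from the peak centre to the nearest TSS was 813 bp, against 819 bp over all CGA1 peaks. The largest was 6738 bp, for the peak in the intron of AT4G02660. Centres within 200 bp upstream of the nearest TSS numbered 31, or 8.54% (6.08 to 11.9), beside a background of 8.22%. The interval covered a TSS in 80 members (22.0%, 18.1 to 26.6), beside 18.4% of all peaks. The nearest TSS belonged to a protein-coding gene for 301 members (82.9%, beside 84.45% of all CGA1 peaks). It belonged to a lncRNA for 31 (8.54%, beside 6.637%). Pseudogenes accounted for 11 (3.03%, beside 3.257%), and transcribed pseudogenes for 8 (2.204%, beside 1.995%). tRNAs accounted for 2 (beside 0.7329% of all CGA1 peaks) and a snoRNA for 1 (beside 0.285%). No member had a miRNA gene as its nearest TSS. Only 15 of all CGA1 peaks (0.6107%) had one, too few to read a difference from. None of these differences was tested.

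The 363 members had 361 distinct nearest genes, so that almost every peak had a gene of its own. Members stood within 5 kb of each other in 3 pairs, namely the SOC1 pair and the pairs at AT2G24761, 854 bp apart, and at AT4G15750, 942 bp apart.

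Of 30 genes that the study named, 5 had a member within 2 kb: SOC1, AT3G17100, AT4G05530, AT2G35380 and AT4G36710. Many of these genes had been picked by the study from these samples, while the paper gives SOC1 and the stomatal gene SPCH as targets identified earlier. The share of all genes with a member within 2 kb was not computed. The count thus has no background and is no independent evidence. The peak near AT3G17100, which encodes a bHLH-type transcription regulator, was 747 bp upstream of its TSS and scored 140.97 and 138.57. Its centre lay within the snoRNA gene AT3G03445, 48 bp from the TSS of that gene. The peak at AT4G05530, a short-chain dehydrogenase, was centred 89 bp downstream of the TSS and scored 133.89 and 126.31. That at AT4G36710, the GRAS factor HAM4, was 802 bp upstream and scored 122.96 and 123.63. Both GNC and CGA1 themselves had 0 members and 0 CGA1 peaks within 2 kb. With quantitative PCR of ChIP DNA, the paper reported binding of CGA1 at the GNC promoter. A peak list and that assay are unlike measures, so the count of 0 is not read as absence of binding.

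Genes were also grouped by words of their annotation, with each member assigned to the protein-coding gene of the nearest TSS. The search is a match of words and misses genes, WRKY11 and LBD11 of the transcription factors among them, both named after their values were seen. It also takes in genes on a word alone. The stress and defence list held SOC1, PKT3 and the tubulin gene TUB8, the last also named after its values were seen. A gene could count in several lists, as SOC1 did for transcription factors and for stress and defence. Genes that matched as transcription factors took 27 members, 7.44% (5.16 to 10.6), against 6.47% of all CGA1 peaks and 4.96% of protein-coding genes. In promoter windows of protein-coding genes they took 12 of 117 members (10.3%), against 5.84% of all CGA1 promoter peaks. In the same windows stress and defence genes took 12 (10.3% against 6.23%) and E3 ubiquitin ligases 2 (1.71% against 5.32%), so the lists moved both ways at these small counts, and no difference was tested. Beside SOC1 and BLH4 the transcription factors included AT1G35560, a TCP family factor, whose peak lay 25 bp downstream of the TSS and scored 130.37 and 166.4. They also included AT3G17100.

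Protein kinases and phosphatases took 25 members (6.89%, against 6.80% of all CGA1 peaks). After AT3G17850 the highest was CPK9, a calcium-dependent protein kinase, 221 bp upstream of the TSS with 128.52 and 151.51. TOPP7, a type one protein phosphatase, had a peak in a coding exon with 145.47 and 125.94, and AT2G25790, a leucine-rich receptor-like kinase, one in the 3' UTR with 123.64 and 147.37. E3 ubiquitin ligases took 15 members (4.13% against 4.19%). They were led by the Tubby-like F-box gene TLP3, which the transcription factor list also held, with 134.71 and 124.83, the F-box gene AT3G22720 with 117.25 in each list, and the RING gene AT1G53190 with 112.54 and 113.85.

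Genes with chloroplast or photosynthesis in their annotation took 34 members (9.37%), against 10.4% of all CGA1 peaks and 9.97% of protein-coding genes. The highest of them were CML41, PMDH1, AT1G35560 and AT3G17100, that is a calmodulin-like protein, a peroxisomal enzyme and a pair of transcription regulators. Stress and defence genes took 23 members (6.34% against 5.33%), transport genes 13 (3.58% against 4.72%) and cell wall genes 10 (2.75% against 2.81%). Over all locations the shares of these lists lay near those of all CGA1 peaks.

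The hormone, light and flowering lists held 1 to 5 members each, too few to read a difference from the shares of all CGA1 peaks. The cytokinin list took 2 members (0.551% against 0.489%), RR1 and AT5G21940. RR1 (ARR1), a response regulator that activates cytokinin-responsive genes, had a peak in its 5' UTR, 169 bp downstream of the TSS, with scores of 140.57 and 131.81 and a GNC peak 165 bp from its edge. AT5G21940, annotated as a histidine kinase-like protein, had a peak 1265 bp upstream with 130.57 and 131.14. The auxin list took 5 (1.38% against 1.30%), among them PAP1, an AUX/IAA repressor, 803 bp upstream with 104.85 and 117.79, and ARF1, an auxin response factor, in its first intron with 95.42 and 90.33. The gibberellin list took 1 (0.275% against 0.0814%), BT4, a BTB and TAZ domain protein, 6 bp upstream with 93.61 and 86.68. The light and clock list took 4 (1.10% against 0.977%), among them BAS1, a brassinosteroid-inactivating cytochrome P450, 4268 bp upstream with 111.47 and 113.03, and FKF1, a blue-light receptor with an F-box, in the neighbouring gene MAP70-1 and 2846 bp downstream of the FKF1 TSS with 92.51 and 89.4. The flowering list took 2 (0.551% against 0.366%), both assigned to SOC1.

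GNC had a peak in either of its lists at 24 members, 6.61% (4.48 to 9.65), beside a background of 6.84% over all CGA1 peaks. The share of the members thus lay at the background. GNC peaks covered 2.25% of the nuclear genome. That is a share of bases, not of intervals that touch a GNC peak, so it is no background for these shares. Over the whole replicate 1 list, the share with a GNC peak was 5.37% for scores of 50 to 60, 6.39% for 60 to 70, 10.15% for 70 to 80, 8.90% for 80 to 100 and 6.09% above. The 95% Wilson intervals were 4.141 to 6.945 for 50 to 60, 4.67 to 8.68 for 60 to 70 and 7.54 to 13.5 for 70 to 80. They were 6.10 to 12.8 for 80 to 100 and 3.52 to 10.3 above. The intervals for 50 to 60 and for 70 to 80 did not overlap, while those of the classes from 70 up did. No difference among the classes was tested. A GNC peak lay within 1 kb of 75 members (20.7%), beside 18.1% of all CGA1 peaks, and the median gap to the nearest GNC peak was 4192 bp.

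Of the 24, 19 overlapped peaks in both GNC lists, 4 in GNC replicate 1 alone and 1 in GNC replicate 2 alone. The peak centres of the factors lay 8 to 374 bp apart, with a median of 107 bp, and the overlap covered 42 to 496 bp. Promoter windows held 7 of the 24 (29.2%), beside 38.0% of all members, and 24 are too few to read a difference from. The median CGA1 score over both lists was 100.8 with a GNC peak and 100.3 without. Only 8 of the 24 had a GNC score of at least 80, and in 5 the mean GNC score exceeded the mean CGA1 score.

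After AT2G00340 and AT3G08880, the peak with the next highest CGA1 score was that of AT2G35380, a peroxidase, centred 208 bp downstream of its TSS and within the gene, with 110.57 and 236.2 for CGA1 and 58.78 and 61.13 for GNC. CCoAOMT1, a caffeoyl-CoA O-methyltransferase of lignin synthesis, had CGA1 scores of 133.89 and 127.75 and GNC scores of 158.49 and 148.91. The centre of the CCoAOMT1 peak lay within the gene, in a transcript-end window. AT3G23470, a cyclopropane fatty acid synthase-like gene, had a peak 480 bp upstream of its TSS with 116.99 and 126.75 for CGA1 and 87.25 in each GNC list. That peak held a run of 50 bp of a repeated dinucleotide, the longest run in any member. At AT2G00340 and CCoAOMT1 both GNC scores were over 100, and at AT3G23470 they were over 80.

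The other shared peaks among the 10 with the highest CGA1 score had lower GNC scores. CIPK15, a CBL-interacting protein kinase, had 126.2 and 114.65 for CGA1 and 65.49 in GNC replicate 1 alone. SLO1, an organellar RNA editing factor, had 109.65 and 113.77 with a GNC peak of 53.68 that overlapped it by 73 bp. SUVH2, a SET-domain protein of RNA-directed DNA methylation, had a peak 236 bp upstream of its TSS with 101.34 and 118.63, and GNC scores of 66.85 and 65.9. The peak in a coding exon of GSL03, a glucan synthase-like gene, had 107.23 and 111.34 with a GNC peak of 54.28, and the peak beside AT4G08160, a glycosyl hydrolase gene, had 119.38 and 88.51 with GNC scores of 59.63 and 60.29. At the low end of the CGA1 scores, RGS1, a regulator of G-protein signalling chosen here after its values were seen, had 80.17 and 86.32 for CGA1 but 94.24 and 114.43 for GNC.

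**Figure D5:**
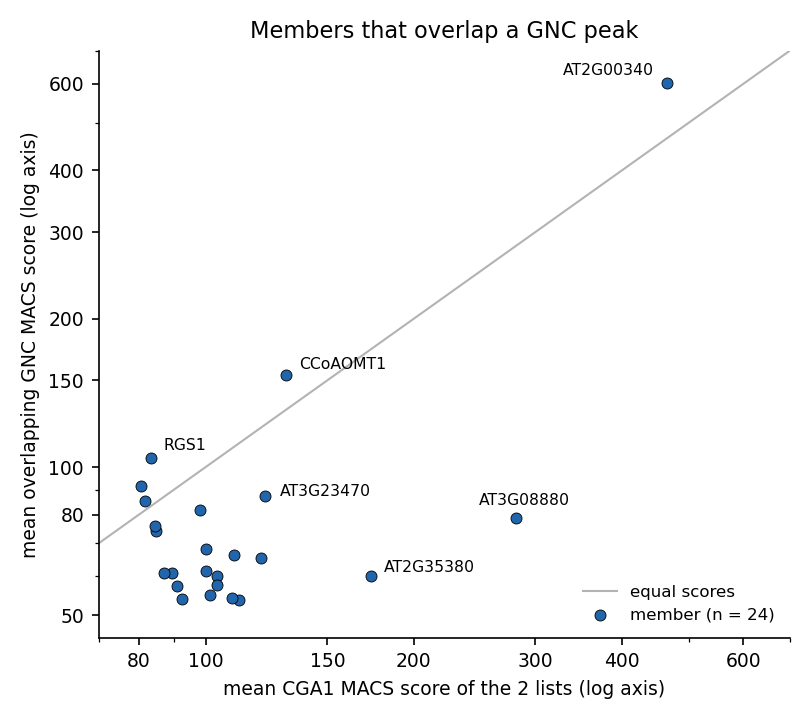
Mean score of the overlapping GNC peaks (y axis) against the mean CGA1 score of both lists (x axis) for the 24 members with a GNC peak, on log axes, with the line of equal scores. Only 5 points lie above the line, AT2G00340, CCoAOMT1 and RGS1 among them.

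GATA words stood in almost every member and almost everywhere else. A window of 150 bp on each side of the centre (301 bp in all) held GATA, on either strand, in 328 members, 90.4% (86.9 to 93.0), beside a background of 92.1% over all CGA1 peaks and 91.1% of 395062 tiles of the same length on the nuclear genome. The mean was 2.84 words per member, 2.75 per CGA1 peak and 2.61 per tile. GATC stood in 64.5% of members, 61.9% of CGA1 peaks and 62.7% of tiles. The longer words, AGATAA and AGATAG with TGATAA and TGATAG, together stood in 62.0% of members, 62.0% of CGA1 peaks and 59.2% of tiles, and contain GATA. The members thus held these words about as often as any CGA1 peak.

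Of the other words searched, GAGAGA stood in 123 members, 33.9% (29.2 to 38.9), in 28.7% of all CGA1 peaks and in 24.5% of tiles, a difference that was not tested. CANNTG, which contains CACGTG, stood in 68.0% of members, 66.9% of all CGA1 peaks and 67.2% of tiles. In the same order, CACGTG stood in 3.58%, 4.07% and 3.27%, AAACCCTA in 3.58%, 3.75% and 3.89%, and GGGCCC in 0.551%, 0.57% and 0.645%. Runs of a dinucleotide of at least 20 bp stood in 5 members, 1.377% (0.590 to 3.18), and in 0.7736% of all CGA1 peaks, a difference that was not tested. The 5 members were those at ARL2, RR1, AT3G23470, NDL2 and AT5G47530, with lengths of 20, 24, 50, 26 and 36 bp. The median GC content of a member was 34.9%, against 35.4% over all CGA1 peaks. The median share of soft-masked, repeat-like bases was 17.3% in members as in all CGA1 peaks. Of all nuclear genome bases, 36.0% were G or C and 21.9% were soft-masked. A median over peaks and a share of all bases are unlike measures, so no difference from the genome is read.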

How the data were processed

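ChIP-seq libraries of the myc-CGA1 and myc-GNC lines were trimmed by the authors, mapped to TAIR10 with Bowtie2 2.2.6, stripped of reads with multiple locations, and called with MACS for each replicate against its INPUT. The score in the deposited lists is the authors' MACS value, and no normalization was added. Depth per peak was unknown. The descriptions of CGA1 INPUT samples name GNC lists, and titles were followed.

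The members and gene lists were chosen with earlier results of these data known. Coordinates are 1-based. Peak centres were placed on the TAIR10.1 annotation with every transcript start counted, in Python 3.11.15 with pandas 2.3.3, NumPy 2.4.6 and SciPy 1.17.1. The overlap and distance code was tested on simulated intervals. Each share has a 95% Wilson interval, which covers the error of counting alone. No statistical test was run. Named were the 15 highest members, the 10 highest with a GNC peak, 3 on each side of the minimum, the 3 longest and shortest, members at genes the study named, and up to 4 of each gene list. Other choices of score, window, overlap and replicate were tried.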

Additional observations from a re-analysis of the deposited data

How the results depend on the processing

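With a score minimum of 70 the number of members was 642, and with a minimum of 100 it was 146. Asking for 1 list only gave 478 to 501 regions, a promoter share of 38.3% to 39.5%, a share within 200 bp upstream of 8.16% to 9.18% (added after seeing the data), a median length of 408 to 442.5 bp, a GNC share of 6.79% to 7.74%, and a GATA share of 90.2% to 91.0%. The promoter share was 32.2% with protein-coding genes only (31.4% over all CGA1 peaks), 25.9% with a window of 500 bp (23.6%), and 49.0% when any overlap of the interval counted (47.2%). The share within 200 bp upstream was 25.3% when measured from the nearest edge (24.1%). The GNC share was 20.7% within 1 kb and 2.204% with a GNC score of at least 80 (2.04% over all CGA1 peaks). The GATA share was 57.0% in windows of 50 bp on each side (56.5%), 98.6% in windows of 250 bp (98.5%), and 62.0% for the longer words. The other 25 of 36 alternatives stayed within 1.5 times the count or within the interval of the reported share. No paired analysis was possible because the lists of a line share their intervals and no result comes from a test between groups.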

Other observations

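Some members lay far from protein-coding genes. The distance from the centre to the nearest protein-coding TSS was over 5 kb for 14 members (3.86%), beside 3.71% of all CGA1 peaks. The farthest, chosen after its values were seen, was a peak of 180 bp at the pseudogene AT3G33097 with scores of 122.55 and 135.66, 193920 bp from the nearest protein-coding TSS. The peak near the pseudogene AT4G06553 scored 122.55 and 124.21 at 69646 bp, and that near AT4G06548 scored 90.17 and 91.5 at 53909 bp.

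Scores repeated among short members. Of the 84 members under 250 bp, 45 shared their replicate 1 score with another member of that class, and 11 had a score of 111.47. In replicate 2, 39 shared a score and 13 had 113.03. Of the 99 members over 550 bp, 0 shared a score in replicate 1. The basis of these ties was not tested.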
